A study of Mus musculus with 12 samples.

Results

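Type I interferon response genes are the genes that cells switch on when interferon alpha or beta binds its receptor. A list of 38 such genes of the mouse was followed by gene symbol through single-cell RNA of sorted synovial innate lymphoid cells (ILCs) and fibroblasts, and 36 of the 38 were measured among the 32285 genes of the feature lists. The antiviral GTPase genes Mx1 and Mx2 were not analysed here. The mice were R5 x R26tdTomato animals of 8 to 10 weeks (Il5 wt/Cre; R26 tdTom/tdTom), so that in every group, controls included, Cre is made from an Il5 allele and cells that have expressed Il5 are marked by tdTomato. Healthy mice were untreated. STA mice had serum transfer arthritis, a joint inflammation brought on by arthritogenic serum, and a further group of STA mice received Il23mc, an agent that the labels name without spelling out. From ankle and wrist joints, ILCs were sorted as viable CD45+ tdTomato+ cells negative for CD3, both T cell receptors, CD11b and GR-1, and fibroblasts as viable CD45- GR-1- cells. In experiment 1 the ILCs of the 3 conditions filled 1 well each, with 3 hashtagged mice per well, and all fibroblasts were loaded together, 1 hashtag standing for healthy, 1 for STA and 1 for Il23mc. Experiment 2 had no Il23mc group; its ILC well and its fibroblast well each took a healthy hashtag and hashtags of mild and of severe STA. The protocol speaks of 4 animals per well and the labels of 3 hashtags, so the hashtag is the replicate, and in the shared wells it may stand for more than 1 animal.

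Interferon alpha and beta act on a receptor of the chains Ifnar1 and Ifnar2, whose kinases activate a complex, with IRF9 as its DNA-binding part, that acts at interferon-stimulated response elements. Interferon gamma uses another receptor and works mainly at gamma-activated sites. The target genes encode proteins that bind viral RNA (the IFIT family), make the second messenger for RNA decay (the OAS family), block virus entry at membranes (the IFITM family), tag proteins with the ubiquitin-like ISG15, sense nucleic acids, or feed back on the pathway. In joints, fibroblasts and resident lymphoid cells both carry interferon receptors, and several of these genes, Irf1 and Bst2 among them, answer to interferon gamma or other inflammatory signals as well.

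The promoters of 7 members are shown because the members fall into those with the full response element and those without it. The sequences are the 160 bases before the transcription start, 5′ to 3′ on the gene's own strand, from RefSeq on GRCm38.p6. N stands for any base, and the hyphens only part the fixed bases from the free ones. Capitals mark GAAA-NN-GAAA on either strand (its reverse complement reads TTTC-NN-TTTC) and TTC-NNN-GAA, a core of gamma-activated sites that reads the same on both strands.
Ifit1, chr19:34640729-34640888, plus strand: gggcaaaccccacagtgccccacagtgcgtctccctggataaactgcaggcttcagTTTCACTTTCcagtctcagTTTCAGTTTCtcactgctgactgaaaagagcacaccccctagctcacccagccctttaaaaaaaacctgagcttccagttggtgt
Ifit3, chr19:34583369-34583528, plus strand: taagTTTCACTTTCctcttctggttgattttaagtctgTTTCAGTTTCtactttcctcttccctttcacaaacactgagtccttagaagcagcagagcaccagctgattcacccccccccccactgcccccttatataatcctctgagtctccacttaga
Isg15, chr4:156200819-156200978, minus strand: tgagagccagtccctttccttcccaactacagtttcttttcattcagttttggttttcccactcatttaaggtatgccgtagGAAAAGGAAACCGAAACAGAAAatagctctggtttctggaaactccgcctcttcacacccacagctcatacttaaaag
Rsad2, chr12:26456453-26456612, minus strand: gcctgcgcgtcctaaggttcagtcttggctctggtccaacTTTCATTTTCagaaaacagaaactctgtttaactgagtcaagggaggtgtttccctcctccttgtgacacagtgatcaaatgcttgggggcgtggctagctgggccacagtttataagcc
Oas1a, chr5:120907526-120907685, minus strand: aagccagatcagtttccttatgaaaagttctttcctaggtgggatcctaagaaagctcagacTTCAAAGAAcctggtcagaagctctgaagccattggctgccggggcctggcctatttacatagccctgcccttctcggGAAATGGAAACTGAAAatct
Bst2, chr8:71537473-71537632, minus strand: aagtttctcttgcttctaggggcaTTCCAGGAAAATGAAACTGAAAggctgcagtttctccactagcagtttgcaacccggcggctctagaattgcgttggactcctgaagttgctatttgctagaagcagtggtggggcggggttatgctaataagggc
Irf1, chr11:53769854-53770013, plus strand: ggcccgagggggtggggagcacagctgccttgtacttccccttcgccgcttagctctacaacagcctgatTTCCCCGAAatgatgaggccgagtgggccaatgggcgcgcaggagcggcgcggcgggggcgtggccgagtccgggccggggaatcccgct
Within these windows Isg15 holds 3 overlapping copies of GAAA-NN-GAAA, Ifit1, Ifit3, Oas1a and Bst2 hold 2 each, Rsad2 holds 1, and Irf1 holds TTC-NNN-GAA alone. In Bst2 the TTC-NNN-GAA match runs into the GAAA-NN-GAAA matches. Of the 36 measured members 28 matched a promoter of the RefSeq table (250 bases before to 50 after each start), and 13 of the 28 (46.4%) hold GAAA-NN-GAAA, 7 of them at least 2 copies. The same letters are found in 3.99% of all 27025 genes listed there. TTC-NNN-GAA is in 6 of the 28 (21.4%) and in 9.55% of all genes, and 3 members hold both. A match is a description of the letters, not a binding site. Several members are also neighbours (GENCODE M21, mm10): the 4 IFIT genes lie within 99.3 kb at chr19:34550694-34650009, the 3 IFITM genes within 55.9 kb at chr7:140954837-141010770, Oas1a, Oas2 and Oas3 within 177 kb at chr5:120730333-120907521, Parp9, Parp14 and Dtx3l at chr16:35832874-35972605, and Rsad2 and Cmpk2 at chr12:26442746-26479837.

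Levels below are CPM values, the counts of a gene scaled to the UMI total of all genes in the summed cells of 1 mouse or hashtag. In 3′ libraries a transcript gives its UMIs from its end, so UMI levels do not grow with transcript length. In experiment 1 a mouse gave 177 to 417 ILC2 cells with 795046 to 2030655 UMIs. Sums held 2494167 to 4638015 UMIs from 389 to 799 ILC2 cells per hashtag in experiment 2, and 3802839 to 17486618 from 305 to 985 fibroblasts. Fibroblast sums carried 35683 to 60289 CPM of 8 fibroblast markers, and ILC2 sums carried 162 to 490. In ILC2 sums of the Il23mc mice the summed T cell markers were 1981, 492 and 96.1 CPM, against 60.6 to 201 in all other ILC2 sums, although CD3+ cells were sorted out; 63 of 191, 37 of 296 and 16 of 258 of these cells held a Cd3d or Cd3e UMI. In the Il23mc cells classed as ILC3 the numbers were 410 of 462, 180 of 221 and 7 of 28. STA mouse 2 of experiment 1 also stood apart, with 1505 CPM of mast cell markers and 395 CPM of plasmacytoid dendritic cell markers in its ILC2 sum, against 218 to 461 and 20.1 to 82.0 in the others. Because each ILC well of experiment 1 held 1 condition, the well and the condition cannot be told apart there. Fewer expressing cells and less RNA per cell cannot be told apart in these sums. Any 2 wells shared 0 to 17 cell barcodes.

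Fibroblasts carried far more RNA of the membrane-guarding IFITM genes than ILC2 cells, while Herc6, Samd9l and Trim30a were among the 9 members that were lower in them. The summed level of the 36 members was 3499 ± 605 CPM in fibroblasts (SD, n = 6 hashtags), 669 ± 221 in ILC2 cells (n = 12) and 797 ± 490 in ILC3 cells (n = 7, healthy and Il23mc). Without Ifitm1, Ifitm2, Ifitm3, Bst2, Lgals3bp and Ifi27l2a the sums were 386 ± 91.4, 448 ± 105 and 408 ± 149 CPM, within each other's spread. In fibroblasts Ifitm3 averaged 1578 CPM and Ifitm2 1274 CPM, 45.1% and 36.4% of the summed level, followed by the transcription factor Irf1 at 132 CPM, the small hydrophobic protein gene Ifi27l2a at 100 CPM, the secreted glycoprotein Lgals3bp at 80.9 CPM and the membrane tether Bst2 at 70.8 CPM. In ILC2 cells the order was Irf1 (83.8 CPM), Lgals3bp (67.6), Samd9l (59.6), Bst2 (55.8) and Isg15 (42.6). These ILC2 neighbours lie within each other's spread over the 12 sums. In ILC3 cells the order depended on the group. Lgals3bp averaged 328 CPM with Il23mc, ahead of Irf1 (113) and Isg15 (69.6), whereas in the healthy mice of experiment 1 Irf1 (52.5), Isg15 (40.3) and Lgals3bp (33.8) lay within each other's spread. Oas2 had no UMI in any of the 12 ILC2 sums, and Ifit3, Ifi44, Oas2, Ifit3b and Oas1a had none in the 7 ILC3 sums.

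**Figure D1:**
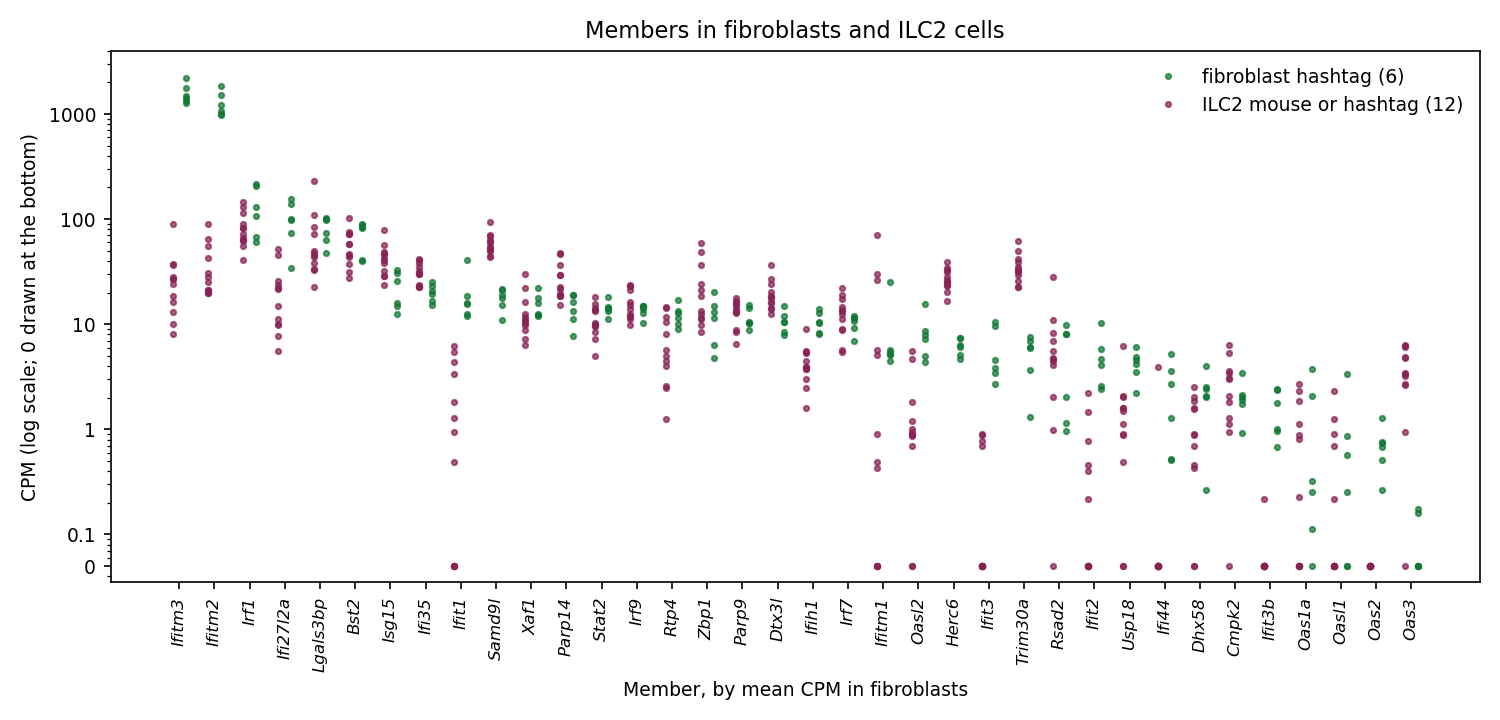
Level of each measured member (CPM, log axis, genes in order of their mean in fibroblasts) in the 6 fibroblast hashtags and the 12 ILC2 sums; 1 dot is 1 mouse or hashtag, and a level of 0 is drawn at the bottom. Ifitm3 and Ifitm2 lie above 900 CPM in every fibroblast hashtag and below 100 CPM in every ILC2 sum.

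The contrast between the sorted populations was tested with edgeR's quasi-likelihood test, averaged over healthy and STA, with p-values adjusted over all genes (Benjamini-Hochberg, threshold 0.05, as in all tests below). Of 31 members tested, 15 were higher and 9 lower in fibroblasts and 7 did not pass; of all 12622 genes 77.2% passed (43.2% higher, 34.0% lower), so a share of this size is what most genes show. The median difference of the members was 0.26 on the log2 scale and that of all genes 0.14. Cell type and well cannot be told apart in this contrast. The IFIT genes, whose proteins hold RNAs that lack the host's cap marks, were all higher where tested: Ifit1 by 3.61 (SE 0.47, adjusted p = 9.94e-07), Ifit2 by 3.45 (SE 0.51, adjusted p = 5.64e-06) and Ifit3 by 5.59 (SE 0.75, adjusted p = 3.10e-06). Ifit3 and its near-identical copy Ifit3b share reads, so their split is uncertain. Ifit1 read 12 to 40.7 CPM in the 6 fibroblast hashtags and 0 to 6.24 CPM in the ILC2 sums.

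The IFITM proteins stiffen membranes against virus fusion. Ifitm3 was 5.99 (SE 0.25, adjusted p = 8.49e-14) and Ifitm2 5.25 (SE 0.24, adjusted p = 3.10e-13) higher on the log2 scale in fibroblasts. Ifitm1, which in humans sits at the cell surface, was 3.18 higher (SE 0.99, adjusted p = 0.00686), but did not pass with experiment 1 alone (adjusted p = 0.281, the highest of 23 alternatives, with 2.15e-12 the lowest). In the OAS family the picture split: Oasl2 was 2.59 higher (SE 0.43, adjusted p = 2.25e-05) and Oas3 was 6.02 lower (SE 0.83, adjusted p = 3.19e-06). Oas3 read 0 to 0.174 CPM in fibroblasts and 0 to 6.40 CPM in ILC2 cells, so both levels are low. Ifi44 (by 4.60), Ifi27l2a (2.55), the ISG15-removing protease Usp18 (1.55), the RNA sensor Ifih1 (1.41), the chaperone Rtp4 (1.38), Irf1 (0.85), Lgals3bp (0.75) and the proapoptotic Xaf1 (0.45) were higher in fibroblasts too; with experiment 1 alone Lgals3bp and Xaf1 no longer passed, and Xaf1 had 0.38 (adjusted p = 0.112) without the healthy fibroblast hashtag of experiment 1.

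The members that were lower in fibroblasts include the ISG15 ligase Herc6 (by 2.21 log2 units, SE 0.18, adjusted p = 1.31e-09), the antiviral restrictor Samd9l (1.68, SE 0.13, adjusted p = 1.14e-09) and Trim30a, a mouse protein that damps Toll-like receptor signalling (2.85, SE 0.25, adjusted p = 5.98e-09). Samd9l read 10.9 to 21.8 CPM in fibroblasts and 43.6 to 94.6 CPM in ILC2 cells, with no overlap. Isg15, the ubiquitin-like tag itself, was lower by 0.77 (SE 0.23, adjusted p = 0.00539), the DNA and RNA sensor Zbp1 by 0.85 (adjusted p = 0.00147), and the partners Dtx3l and Parp14, a ubiquitin ligase and an ADP-ribosyl transferase, by 0.85 and 0.66. Ifi35 was lower by 0.52. With experiment 2 alone Parp14 and Ifi35 did not pass, and Isg15 had an adjusted p of 0.0569 and 0.0668 without the STA fibroblast hashtag of experiment 1 and the healthy one of experiment 2. Bst2 differed by 0.09 (SE 0.17, adjusted p = 0.641) and the effector Rsad2 by -0.11 (SE 0.60, adjusted p = 0.881).

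In ILC2 cells the members that rose with Il23mc were the sensor Zbp1, the transcription factor Irf1 and Lgals3bp, while Isg15 did not pass and the IFIT and OAS genes were too low to test. Zbp1 triggers necroptosis when it meets Z-form nucleic acids. It read 59.1, 48.5 and 36.4 CPM in the 3 Il23mc mice, 24.4, 12.4 and 18.8 in the 3 STA mice, and 11.3, 9.85 and 13.3 in the 3 healthy mice of experiment 1. Every Il23mc mouse was above every STA and healthy mouse. The mean went from 18.5 ± 5.99 CPM in STA to 48.0 ± 11.3 with Il23mc (SD, n = 3 each), a log2 difference of 1.43 (SE 0.26, adjusted p = 0.00737) that passed in all 14 alternatives.

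Irf1, a transcription factor that both interferon classes and other cytokines induce, read 130, 147 and 115 CPM with Il23mc, 72.3, 81.5 and 41.3 in STA and 81.8, 62.1 and 55.1 in healthy mice. The Il23mc mice again lay above all others. It rose by 1.06 against STA (SE 0.22, adjusted p = 0.0216). The adjusted p was 0.0691 without STA mouse 1, 0.0863 without STA mouse 3, 0.125 without Il23mc mouse 2 and 0.0995 over all ILC classes, with 1.39e-05 the lowest of 14 alternatives. Lgals3bp read 231, 110 and 84.0 CPM with Il23mc, 47.9, 72.2 and 46.0 in STA and 32.7, 43.8 and 49.8 in healthy mice. Its order over the Il23mc mice followed that of the T cell markers. It rose by 1.36 (SE 0.29, adjusted p = 0.0249), and by 0.60 (adjusted p = 0.158) without cells that held a Cd3d or Cd3e UMI, the highest adjusted p of 14 alternatives that began at 5.56e-09. It was 0.125 without STA mouse 1, 0.120 without STA mouse 3, 0.0577 without Il23mc mouse 1, 0.145 when 1 rule set hashtags and classes in every well (a rise of 0.65) and 0.062 with only these groups in the fit. These 3 were the members that passed of 21 tested, against 1.72% of all 7317 genes (1.16% higher), and none fell. The median member differed by 0.36 and the median gene by 0.00. Without the Cd3-holding cells 2 of 20 members passed, Zbp1 at 1.31 (adjusted p = 0.0087) and Irf1 at 1.22 (adjusted p = 0.0034).

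The remaining members in this comparison did not pass. Xaf1 had 1.09 (adjusted p = 0.111), Dtx3l 0.92 (adjusted p = 0.106) and Parp14 0.85 (adjusted p = 0.115), with no overlap between the groups for these 3 genes. Isg15 had 0.15 (SE 0.32, adjusted p = 0.924), with 47.9, 48.5 and 56.7 CPM in Il23mc and 23.5, 78.4 and 38.4 CPM in STA mice. Bst2 had 0.17 (SE 0.28, adjusted p = 0.888) and Samd9l 0.36 (SE 0.20, adjusted p = 0.525). Ifi27l2a went the other way, with 25.6, 5.54 and 11.1 CPM in Il23mc and 46.1, 52.0 and 21.6 in STA mice (-1.57, SE 0.42, adjusted p = 0.0902). Of the IFIT genes, Ifit1 read 0 to 6.24 CPM over the 9 mice.

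**Figure D2:**
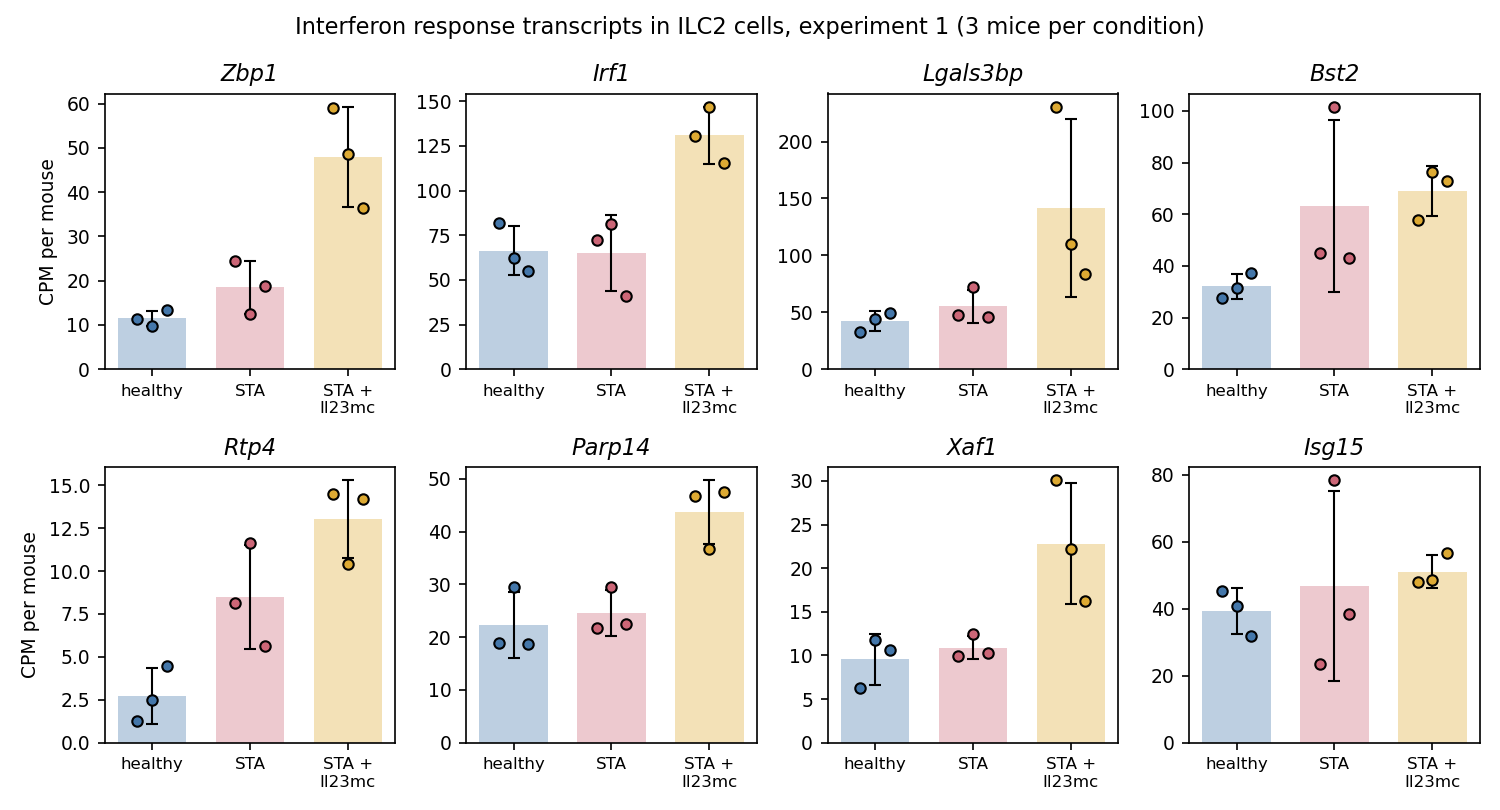
Level of 8 members in ILC2 cells (CPM, y axis from 0) by group; points are the 3 mice per group of experiment 1, bars the mean and error bars the SD. Zbp1 and Irf1 lie higher in every Il23mc mouse than in any STA or healthy mouse, whereas the Isg15 groups overlap.

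Against healthy mice, which the comparison above did not use but which share the Il23mc mice with it, 8 of 21 members rose in Il23mc mice and none fell; of all genes 7.50% passed (4.63% higher, 2.87% lower). The median member differed by 0.81 and the median gene by -0.01. Zbp1 rose by 2.18 (SE 0.27, adjusted p = 0.000148), Lgals3bp by 1.80 (SE 0.30, adjusted p = 0.00144; 1.04 and adjusted p = 0.0031 without Cd3-holding cells) and Irf1 by 1.11 (SE 0.22, adjusted p = 0.00561). Rtp4, a chaperone of membrane receptors that also restrains flavivirus replication, read 14.5, 10.4 and 14.2 CPM with Il23mc, 8.13, 11.6 and 5.63 in STA and 1.26, 2.46 and 4.44 in healthy mice, and rose by 2.26 (SE 0.45, adjusted p = 0.00581; 0.052 without healthy mouse 2, the highest of 14 alternatives, with 0.000539 the lowest). The STA mice lay between the 2 other groups, overlapping the Il23mc mice only.

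Bst2 (tetherin) holds budding virus at the cell surface and marks plasmacytoid dendritic cells in the mouse. It read 57.9, 76.2 and 72.9 CPM with Il23mc and 27.7, 31.5 and 37.3 in healthy mice, and rose by 1.21 (SE 0.30, adjusted p = 0.0213). Xaf1 rose by 1.25 (SE 0.30, adjusted p = 0.0197) and Parp14 by 0.99 (SE 0.24, adjusted p = 0.0200). Leaving out 1 mouse ended some of these calls: Bst2 had an adjusted p of 0.0509 to 0.0997 without healthy mouse 1, 2 or 3 or Il23mc mouse 2 or 3, Xaf1 of 0.0590 to 0.0705 without healthy mouse 1 or 3 or Il23mc mouse 1 or 2, and Parp14 of 0.0565 to 0.0993 without healthy mouse 1 or 3 or Il23mc mouse 3. Over all 14 alternatives the adjusted p ran from 5.99e-06 to 0.261 for Bst2, 0.00712 to 0.0731 for Xaf1 and 0.00423 to 0.0993 for Parp14. For Ifitm1 the 3 Il23mc mice gave 111 UMIs and the 3 healthy mice 1, a ratio of CPM of 132 with a 95% counting interval of 23.2 to 5251. Its Il23mc levels were 70.2, 29.8 and 5.06 CPM, in the order of the T cell markers, and without Cd3-holding cells it was too low to be tested; without healthy mouse 2 its adjusted p was 0.051, from 0.00544. Leaving out the Cd3-holding cells left 7 of 20 members past the threshold, and leaving out any 1 healthy mouse left 5.

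In STA against healthy mice no ILC2 member passed: 0 of 21 by edgeR and 0 by DESeq2, with 7 at an unadjusted p under 0.05, while 2.86% of all genes passed (1.61% higher, 1.24% lower). Of the 21, 17 had a positive difference (median 0.30, against -0.01 for all genes). Ifi27l2a read 46.1, 52.0 and 21.6 CPM in STA and 10.1, 14.8 and 22.2 in healthy mice, 1.39 higher (SE 0.40, adjusted p = 0.0825), with overlap. Bst2 read 45.2, 102 and 43.1 against 27.7, 31.5 and 37.3 CPM, 1.05 higher (SE 0.30, adjusted p = 0.0835). The highest value is that of STA mouse 2, the mouse with raised mast cell and dendritic cell markers, and without it the difference was 0.50 (adjusted p = 0.445, with 0.000236 the lowest over 14 alternatives). Rtp4 was 1.65 higher (SE 0.48, adjusted p = 0.0884), and Irf1 (0.06), Isg15 (0.34, adjusted p = 0.690), Lgals3bp (0.44, adjusted p = 0.557) and Samd9l (-0.48, adjusted p = 0.247) did not pass either.

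The shared ILC well of experiment 2 gave 1 hashtag per condition and no test. Bst2 read 46.6 CPM in healthy, 57.7 in mild STA and 71.8 in severe STA ILC2 cells. Ifi27l2a read 7.76, 23.7 and 9.80 CPM in the same order, and Rtp4 2.59, 4.01 and 5.02 CPM. Bst2 and Rtp4 were thus highest in the severe hashtag, and Ifi27l2a in the mild one. Between severe and mild STA 2 of 23 members were at least 2-fold higher (Zbp1, at 21 against 8.42 CPM, and Ifih1, on 17 against 4 UMIs) and 2 were lower (Ifi27l2a, and Rsad2 on 9 against 12 UMIs), beside 3.32% of 9470 genes past that fold (2.13% higher, 1.18% lower). Against healthy, 1 was higher (Ifi27l2a) and 2 were lower (Ifih1 and Ifitm3) in mild STA, beside 3.53% of 9516 genes (1.58% higher, 1.95% lower). In severe STA 0 were higher and 2 were lower than in healthy cells (Ifitm3 and Rsad2), beside 3.69% of 9908 genes (1.93% higher, 1.77% lower).

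In cells classed as ILC3 the members that were higher with Il23mc were led by the IFITM genes and Lgals3bp. Of 20 members tested against healthy mice, 11 rose and none fell, while 24.3% of all 6953 genes passed (12.8% higher); the median member differed by 0.82 and the median gene by -0.01. Ifitm3 read 95.3, 87.0 and 50.6 CPM with Il23mc and 6.85, 6.30 and 1.89 CPM in healthy mice, 4.72 higher on the log2 scale (SE 0.35, adjusted p = 2.43e-06). Ifitm2 read 124, 119 and 50.6 against 6.85, 1.26 and 6.03 CPM, 4.55 higher (SE 0.34, adjusted p = 2.52e-06). Ifitm1 had 904 UMIs in the Il23mc mice and 0 in the healthy mice, at least 279-fold higher against a floor of 3 counts over the healthy group. The groups did not overlap for any of these 3 genes, and for each the lowest Il23mc mouse was mouse 3, which had 28 such cells, 7 of them with a Cd3d or Cd3e UMI.

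Lgals3bp read 430, 385 and 169 CPM with Il23mc and 27.4, 37.8 and 36.2 in healthy mice, 3.42 higher (SE 0.28, adjusted p = 5.24e-06). Zbp1 went from 8.91 ± 4.05 to 46.9 ± 11.8 CPM, a rise of 2.34 (SE 0.27, adjusted p = 6.14e-05). The neighbours Dtx3l (1.81, SE 0.29, adjusted p = 0.000743), Parp14 (1.53, SE 0.26, adjusted p = 0.000984) and Parp9 (1.04, SE 0.27, adjusted p = 0.0139) rose together; Parp9 and Dtx3l encode proteins that bind each other. Bst2 rose by 0.85 (SE 0.19, adjusted p = 0.00685), Irf1 by 0.87 (SE 0.26, adjusted p = 0.0293) and Trim30a by 0.79 (SE 0.24, adjusted p = 0.0332). Leaving out 1 mouse ended these 3 calls and that of Parp9: the adjusted p was 0.0532 for Bst2 without Il23mc mouse 2, 0.0619 to 0.109 for Irf1 without healthy mouse 2 or 3 or Il23mc mouse 2, and 0.0540 to 0.191 for Parp9 and 0.113 to 0.369 for Trim30a without healthy mouse 2 or 3 or Il23mc mouse 1. DESeq2 did not call Bst2, Parp9 or Trim30a. Isg15 had 0.68 (SE 0.25, adjusted p = 0.0629), with 61.2, 63.2 and 84.3 against 22.8, 59.2 and 38.8 CPM. T cell markers summed to 3820, 3582 and 834 CPM in the Il23mc mice and 150 to 267 CPM in the healthy mice, and their part in these differences was not tested beyond leaving out Cd3-holding cells. Of 13 immediate early genes, which tissue digestion can induce, 2 rose and 7 fell in the same comparison, Atf3 by 2.51 and Fos by 1.09 among them, and their part was not tested. Without Cd3-holding cells 7 members could be tested and 5 rose: Isg15 by 1.44 (adjusted p = 0.0271), Irf1 by 1.80 (adjusted p = 0.0004), Lgals3bp by 2.06 (adjusted p = 0.0001), Ifi27l2a by 2.73 (adjusted p = 0.0013) and Parp14 by 1.64 (adjusted p = 0.0291). Of all 3728 genes tested there 222 rose and 150 fell. The IFITM genes, Zbp1 and Dtx3l were not among the members that passed without these cells. Most of them were too low to be tested there, so whether they still differed is not known.

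**Figure D3:**
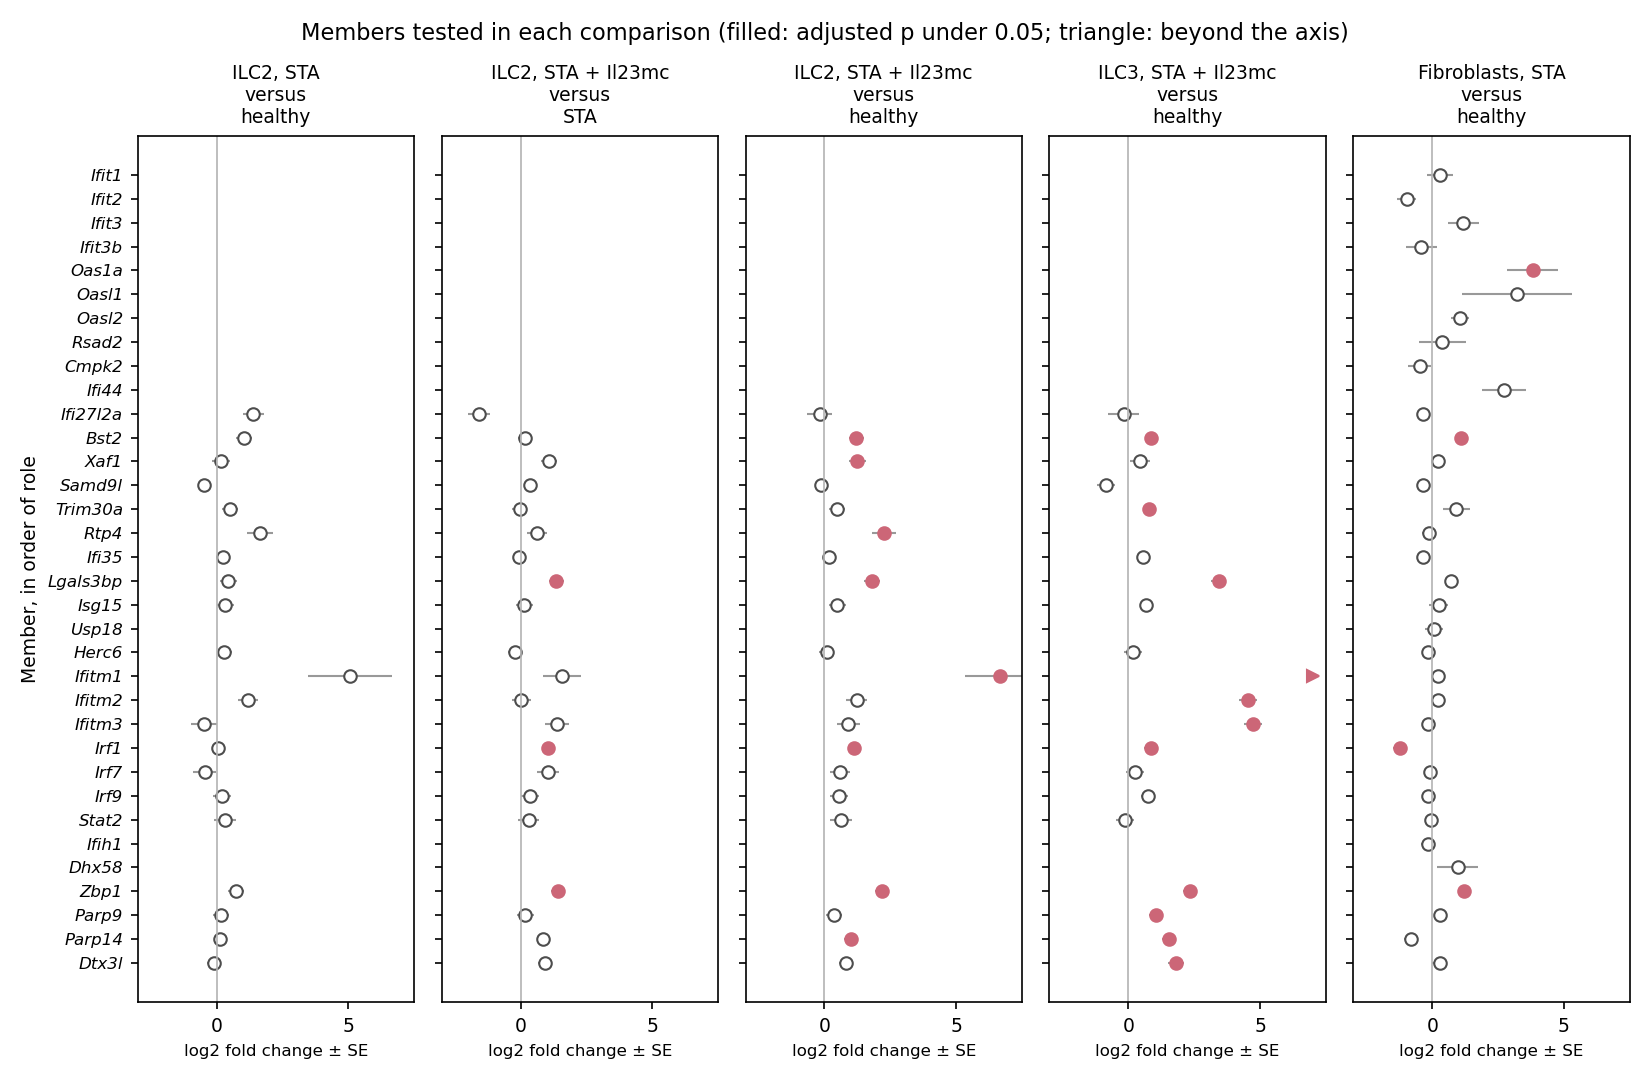
Fitted log2 difference and its standard error for every member tested in 5 comparisons; filled points have an adjusted p under 0.05, and a triangle marks a value beyond the axis (Ifitm1 in ILC3 cells). No ILC2 member is filled for STA against healthy, 3 are for Il23mc against STA, and Irf1 in fibroblasts is the filled point below 0.

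In STA fibroblasts Bst2 and Zbp1 were higher and Irf1 lower than in healthy ones, while the IFIT genes and Isg15 did not pass. Of 34 members tested between STA (3 hashtags) and healthy (2 hashtags), with a term for the experiment, 3 rose, 1 fell and 30 did not pass; 16.1% of all 13328 genes passed (8.21% higher, 7.93% lower). The median member differed by 0.21 and the median gene by 0.01. Bst2 read 81.8, 90.8 and 84.4 CPM in the STA hashtags of experiment 1 and of mild and severe STA in experiment 2, and 40.7 and 40.2 CPM in the healthy hashtags of experiments 1 and 2. The groups lay far apart, and the rise was 1.08 (SE 0.11, adjusted p = 0.00444), past the threshold in all 11 alternatives.

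Zbp1 read 11.5, 15 and 13.0 against 6.36 and 4.73 CPM, a rise of 1.22 (SE 0.23, adjusted p = 0.0175). Without the healthy hashtag of experiment 2 its adjusted p was 0.0877, the highest over 11 alternatives, with 3.81e-06 the lowest. Oas1a, a synthetase of 2-5A chains that shares reads with near-identical copies, also passed (3.82, SE 0.96, adjusted p = 0.0407), on 67 UMIs against 1, but its groups overlap: it read 3.71, 0.32 and 0.11 against 0.25 and 0 CPM. The ratio of CPM was 16.0 with a counting interval of 2.77 to 641. Oas1a passed in 5 of 10 alternatives, with an adjusted p of 0.00228 to 0.556 over them; it was 0.21 with DESeq2, 0.398 without the experiment term, and 0.509, 0.556 and 0.0606 without the healthy hashtag of experiment 1, the STA hashtag of experiment 1 and the mild hashtag.

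Irf1 fell: it read 60.4, 107 and 132 CPM in STA and 218 and 207 CPM in healthy fibroblasts, with no overlap, and the difference was -1.24 (SE 0.24, adjusted p = 0.0178). Without the experiment term it was -1.11 (adjusted p = 0.0916, the highest over 11 alternatives, with 4.27e-18 the lowest). The make-up of the sums moved with it. Mmp3+ cells, the authors' class with the lowest Irf1 of the 3 large classes, were 2.16% and 9.21% of the healthy hashtags and 66.5%, 45.6% and 38.4% of the STA hashtags. Within Pi16+ cells Irf1 read 155, 310 and 263 CPM in STA and 275 and 249 in healthy hashtags, and within Il6+ cells 99.0, 139 and 300 against 208 and 215 CPM. Within Pi16+ and Il6+ cells the STA and healthy hashtags overlapped. Within Mmp3+ cells Irf1 read 46.8, 61.1 and 62.6 against 66.8 and 78.3 CPM, with no overlap. The healthy hashtags held only 10 and 29 Mmp3+ cells. In each of these classes the STA hashtag of experiment 1 was the lowest, and none of these within-class values was tested. Of the 13 immediate early genes 3 fell in the same comparison (Atf3 by 0.70, Junb by 0.61 and Ier2 by 0.50); their part in the fall of Irf1 was not tested.

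Bst2 was followed in the Pi16+ and Il6+ classes. Within Pi16+ cells it read 136, 53.8 and 72.5 CPM in STA and 51.2 and 36.6 in healthy hashtags, and within Il6+ cells 107, 49.5 and 79.9 against 54.3 and 39.7 CPM. In Il6+ cells the groups overlap by the mild hashtag, and in Pi16+ cells they do not. Zbp1 within Pi16+ cells read 15.6, 18.4 and 12.8 against 6.33 and 3.52 CPM, and within Il6+ cells 28.5, 26.1 and 18.1 against 16.3 and 8.15 CPM. In both classes every STA hashtag was above both healthy hashtags. Lgals3bp, which had 0.69 (SE 0.19, adjusted p = 0.054) over all fibroblasts, read 148, 146 and 148 against 67.9 and 50.9 CPM within Il6+ cells and 122, 87.6 and 96.3 against 63.9 and 51.4 CPM within Pi16+ cells, again with no overlap. Within Mmp3+ cells every STA hashtag was above both healthy hashtags for these genes, on few healthy cells. Lining cells of experiment 1 read 43.5 CPM of Bst2 in STA against 44.6 in healthy, 4.70 against 0 of Zbp1 and 37.6 against 73.4 of Lgals3bp. Osteoblasts of experiment 1 read 35.5 against 54.3 CPM of Lgals3bp. The rise of Lgals3bp was thus not seen in every class. These within-class values carry no test.

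Other fibroblast members missed the threshold with wide errors. Ifi44 had 2.73 (SE 0.85, adjusted p = 0.0742) and Oasl2 1.06 (SE 0.34, adjusted p = 0.0836), both with separate groups; Parp14 had -0.82 (SE 0.26, adjusted p = 0.0739). Ifit1 read 15.4, 12 and 40.7 against 15.8 and 18.7 CPM (0.30, SE 0.49, adjusted p = 0.719) and Isg15 25.5, 15.8 and 32.8 against 30.5 and 15 CPM (0.24, SE 0.36, adjusted p = 0.685). Their spread between STA hashtags was larger than the difference between the groups. The abundant members did not pass either: Ifitm3 had -0.17 (SE 0.09, adjusted p = 0.237), Ifitm2 0.20 (SE 0.10, adjusted p = 0.196) and Ifi27l2a -0.37 (SE 0.15, adjusted p = 0.136). Between fibroblasts and ILC2 cells the effect of STA itself was compared by an interaction term, which 0 of 31 members passed by edgeR and 1 by DESeq2 (5 at an unadjusted p under 0.05), beside 1.77% of all genes (0.761% higher, 1.01% lower). The nearest were Ifi27l2a (-1.65, adjusted p = 0.069) and Irf1 (-1.09, adjusted p = 0.0951), lower in the fibroblast response.

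Among the authors' fibroblast classes, as a description, the Il6+ and Pi16+ classes had the highest summed levels of the 4 classes compared and the lining class the lowest. Leaving out the 6 abundant members, the summed level was 469 to 926 CPM in Il6+, 526 to 702 in Pi16+, 214 to 398 in Mmp3+ and 194 to 252 in lining cells, over hashtags with at least 20 cells (2 for lining). Ifi27l2a read 125 to 395 CPM in Pi16+, 5.75 to 11.8 in lining cells and 2.09 to 6.04 in osteoblasts; the range of the Pi16+ class does not meet those of the other two. Ifitm3 read 1843 to 2689 CPM in Il6+ and 938 to 1018 in lining cells. Among the ILC classes Samd9l read 88.0 to 212 CPM in precursors, 55.2 to 142 in ILC2-1, 35.7 to 95.6 in ILC2-2 and 36.4 to 82.9 in ILC2-3 cells. Isg15 read 0 to 14.1, 5.05 to 36.0, 28.9 to 68.0 and 23.5 to 70.3 CPM in the same order. For Samd9l the precursors were apart from ILC2-3 alone of these classes, and for Isg15 they were apart from ILC2-2 and ILC2-3.

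In some fibroblast hashtags most RNA of the classical antiviral genes sat in few cells. They were STA of experiment 1, severe STA and the healthy hashtag of experiment 2. A set of 14 members was taken for this (Ifit1, Ifit2, Ifit3, Ifit3b, Rsad2, Oas1a, Oas2, Oas3, Oasl1, Oasl2, Isg15, Usp18, Ifi44 and Cmpk2), chosen after the data had been seen, and a cell was called high when it held UMIs of at least 4 of them. In the STA hashtag of experiment 1, 26 of 985 fibroblasts (2.64%, exact 95% binomial interval 1.73 to 3.84) were high, and they held 1182 of its 1546 UMIs of the set. In severe STA 23 of 497 (4.63%, 2.96 to 6.86) were high with 811 of 1166 UMIs, in mild STA 11 of 305 (3.61%, 1.81 to 6.36) with 112 of 324, and with Il23mc 20 of 984 (2.03%, 1.25 to 3.12) with 296 of 895. In healthy hashtags 1 of 462 (0.216%, 0.00548 to 1.20) and 3 of 315 (0.952%, 0.197 to 2.76) were high, with 53 of 302 and 135 of 254 UMIs. Healthy fibroblasts were also shallower, with medians of 7748 and 11074 UMIs per cell against 14766 to 17370 in the other hashtags.

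With every cell thinned to 5000 UMIs and the same rule of at least 4 genes, an alternative chosen after seeing the data, the shares were 0.275% (1 of 364) and 1.04% (3 of 289) in healthy hashtags. In STA they were 1.10% (10 of 911), 0.35% (1 of 286) and 2.00% (9 of 450), and with Il23mc 0.642% (6 of 934). All of these intervals overlap. Each is drawn over the cells of 1 hashtag, and an overlap is not a test. Whether the share was higher in STA at this depth was not tested. Under a rule of at least 5 UMIs of the set, the shares over all UMIs were 2.16% and 1.59% in healthy hashtags, 3.45%, 4.92% and 7.24% in STA and 4.07% with Il23mc, and after thinning they were 1.65% and 1.04%, 1.43%, 1.40% and 2.22%, and 1.39%. Single cells weighed heavily: in STA of experiment 1 the top 3 cells held 501, 80 and 75 UMIs of the set, 42.4% of its total, and in severe STA 312, 69 and 60. In the healthy hashtag of experiment 2 the top 3 held 65, 55 and 15, 53.1% of its total. The intervals cover counting error only. In ILC2 cells 5 of 216 cells of STA mouse 2 were high (2.31%, 0.756 to 5.32), and every other ILC2 sum held at most 1.

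Members that had not been used to pick the high fibroblasts were mostly higher in them too. Of the 22 such members, 20 were higher in the high cells of STA in experiment 1, 20 in severe STA, 17 in mild STA and 21 with Il23mc, where the high cells number 11 to 26. In healthy hashtags 12 of 22 were higher in the 1 high cell of experiment 1, and 19 of 22 in the 3 of experiment 2. The share of all genes that were higher in high cells is not given here. In STA of experiment 1 the summed UMIs of the high cells gave 571 CPM of Bst2 against 66.1 in the other fibroblasts, 137 against 5.09 CPM of Irf7, the factor that amplifies interferon production, and 314 against 66.7 CPM of Ifi27l2a. Rtp4 read 110 against 5.75 CPM, Xaf1 127 against 8.92, Trim30a 107 against 3.71 and Zbp1 76.7 against 9.40. Ifitm3 read 2909 against 1431 CPM, while Ifitm2 read 1454 against 1505 and Irf1 103 against 59.1 CPM. Irf1 did not keep this direction in the other STA hashtags, at 67.3 against 136 CPM in severe and 96.6 against 108 CPM in mild STA, and Ifi27l2a was lower in the high cells of mild STA, at 83.2 against 102 CPM. In STA of experiment 1 the largest ratios were in genes that are low in the other cells. The leukocyte gene Ptprc (CD45) had no UMI in these high cells, fibroblast markers summed to 56909 against 51519 CPM and monocyte and macrophage markers to 13.1 against 17.4 CPM. Of these 26 cells 19 were classed as Mmp3+, 5 as Il6+ and 1 each as lining and Pi16+; of the 20 with Il23mc, 11 were Il6+, 8 Mmp3+ and 1 Pi16+.

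**Figure D4:**
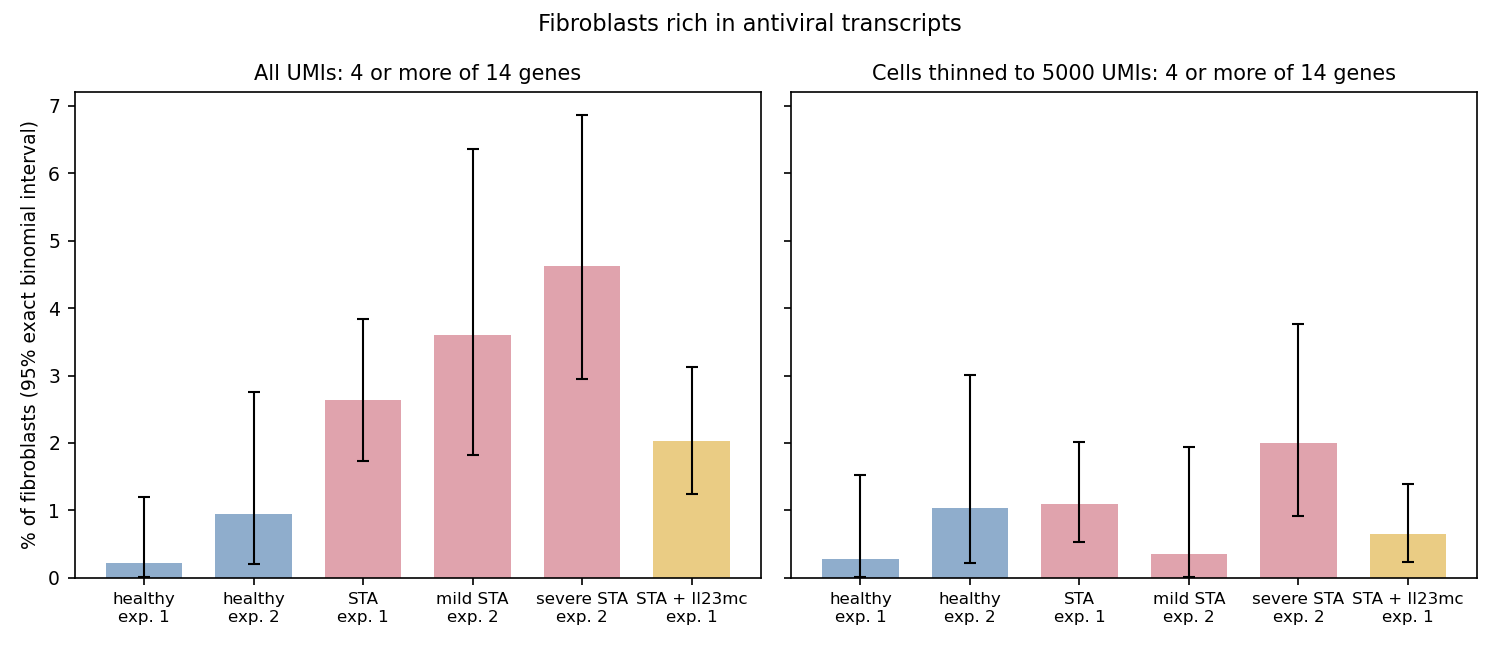
Percent of fibroblasts that are high in 14 antiviral members per hashtag, with exact 95% binomial intervals; the left panel uses all UMIs (at least 4 of the 14 genes), the right panel cells thinned to 5000 UMIs, with the same rule. On the left the healthy hashtags are lowest at 0.216% and 0.952%, and on the right all intervals overlap.

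Severe and mild STA fibroblasts shared a well, with 1 hashtag each and no test. Of 32 members with at least 20 UMIs, 7 were at least 2-fold higher in severe STA and 0 lower, beside 1.93% of 12413 genes higher and 2.27% lower (4.20% in all); the median member had a log2 ratio of 0.44 and the median gene 0.01. Rsad2, which makes a chain-terminating nucleotide, read 8.08 CPM in severe and 0.96 in mild STA. Its log2 ratio was 2.97 (95% counting interval 1.88 to 4.57). Ifit1 had 1.76 (1.40 to 2.14), Ifit3 1.92 (1.20 to 2.79), Ifi44 1.94 (0.91 to 3.31), Isg15 1.04 (0.72 to 1.39) and Trim30a 1.01 (0.33 to 1.78), and the seventh, Oasl1, had 30 UMIs against 0. Bst2 (-0.11, -0.27 to 0.05) and Zbp1 (-0.21, -0.61 to 0.20) had counting intervals that include 0. Without the 3 cells of each hashtag with the most UMIs of the set, an alternative chosen after seeing the data, Ifit1 had 1.08 and Isg15 0.78.

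Il23mc against STA fibroblasts of experiment 1 were likewise 1 hashtag each in 1 well. Of 35 members 1 was at least 2-fold higher and 7 lower, beside 2.65% of 13204 genes higher and 3.38% lower (6.03% in all); the median member had -0.08 and the median gene -0.23. Ifitm1 was the higher one, at 25.3 against 5.74 CPM (log2 ratio 2.14, 1.82 to 2.47), and within Il6+ cells it read 84.1 against 18.0 CPM. Ifi27l2a had -1.12 (-1.27 to -0.98) and Isg15 -1.01 (-1.25 to -0.78). Rsad2 had -3.08 (-3.86 to -2.44), but -0.56 without the top 3 cells of each hashtag. Ifit3 (-1.06), Cmpk2 (-1.04) and Ifit1 (-0.31) turned to 0.065, 0.50 and 0.23 without those cells. Zbp1, which rose in ILC2 cells with Il23mc, had 0.81 here (0.56 to 1.07), at 20.2 against 11.5 CPM, and Parp14 had 0.80 (0.49 to 1.12).

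The ligands were nearly absent from these cells. No UMI of an interferon alpha, beta or lambda gene on the list was found in any sum, and Ifnz, Ifnk and Ifne had 1 or 2 UMIs at most per cell type. Ifng had 29 UMIs in all ILC2 sums, 15 of them in Il23mc mouse 1, and 245 in the 7 ILC3 sums, of which all but 62 were in Il23mc mouse 2. It had 0 in fibroblasts. Both chains of the type I receptor were present: Ifnar1 had 2767 UMIs in ILC2, 1331 in ILC3 and 1882 in fibroblasts, and Ifnar2 1199, 410 and 6634. Relative to ILC2 cells, fibroblasts had less Ifnar1 (by 2.20 on the log2 scale, adjusted p = 2.43e-13) and more Ifnar2 (by 0.80, adjusted p = 1.74e-06). Ifnar1 had 104 ± 9.36 CPM in Il23mc, 125 ± 2.15 in STA and 151 ± 17.2 in healthy ILC2 cells and passed in no ILC2 comparison; in ILC3 cells it fell by 0.63 with Il23mc (adjusted p = 0.016). Ifngr2, a chain of the interferon gamma receptor, fell by 0.97 with Il23mc against healthy ILC2 cells (adjusted p = 0.0154) and by 2.38 in ILC3 cells (adjusted p = 7.51e-05). Of the Il23mc cells classed as ILC3, 410 of 462, 180 of 221 and 7 of 28 held a Cd3d or Cd3e UMI. In healthy mice of experiment 1 these were 0 of 85, 2 of 150 and 33 of 463. Their part in the Ifng, Ifnar1 and Ifngr2 values of ILC3 cells was not tested. Ifngr1 fell by 0.48 in STA fibroblasts (adjusted p = 0.039).

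Beside the members stand 30 genes that lean towards interferon gamma, among them guanylate-binding proteins, immunity-related GTPases and antigen presentation genes. In ILC2 cells of Il23mc against STA mice 17 of 25 tested rose and 0 fell (median difference 1.41), where the members had 3 of 21 and a median of 0.36. Against healthy mice 23 of 25 rose, against 8 of 21 members, and in STA against healthy mice 3 of 25 (B2m, H2-K1 and Psmb10), against 0 of 21. Of all genes 1.16%, 4.63% and 1.61% were higher in these ILC2 comparisons, in the same order. In fibroblasts of STA mice 0 of 24 rose and 2 fell, beside 8.21% of all genes higher and 7.93% lower. The 2 were Gbp2, by 0.78 (adjusted p = 0.0134), and H2-D1, by 0.38 (adjusted p = 0.0393). The difference between the 2 lists was not tested. Among 27 signalling and sensor genes tested in STA fibroblasts 2 rose and 1 fell, beside 8.21% of all genes higher and 7.93% lower. The adaptor Tmem173 (STING) rose by 1.01 (adjusted p = 0.007) and the Toll-like receptor adaptor Myd88 fell by 0.79 (adjusted p = 0.0079). In ILC3 cells with Il23mc 21 of 24 genes of the first list rose, and 11 of 24 signalling genes rose and 2 fell, beside 12.8% of all genes higher and 11.5% lower, in sums with the raised T cell markers given above; these lists were not counted without the Cd3-holding cells.

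Over the 9 ILC2 mice of experiment 1, the genes outside the lists whose log2 level followed the summed members most closely were Gcnt2 (r = 0.945), Mrps34 (r = 0.934) and H2-DMa (r = 0.934), of 7198 genes compared. The mice share their wells by condition, so these likenesses describe these 9 mice.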

How the data were processed

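The authors deposited raw UMI counts per gene and cell barcode from 10x 3′ libraries of 6 wells, with matching hashtag counts. The file headers name Cell Ranger 6.1.2, and the submitters' processing notes name 6.0.6 and mm10. Another deposited file lists the cells the authors kept and gives each its counts of UMIs and hashtag UMIs, mitochondrial fraction, margin score of the hashtag, hashtag and class; the tools behind these are not given in the sources used here. That table holds no cell of the STA ILC well, and its UMI totals equal the matrix totals in all cells of the ILC wells it covers but in 201 of 2431 and 118 of 1117 fibroblasts.

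The authors' calls and classes were used where given. Where they were not, in the STA well of the ILCs and for mild and severe STA in the later ILC well, HTODemux assigned hashtags (quantile 0.99 in Seurat 5.3.0). It leaves out doublets between hashtags only. It gave 98.3 and 98.6% of the authors' calls in the healthy and Il23mc ILC wells, and 82.0 and 92.4% in the fibroblast wells. In the later ILC well, which holds mild and severe STA, it gave 70.3% of them (916 of 1303). Cells with at least 2000 UMIs and 700 genes and at most 10% mitochondrial UMIs took their class from 15 nearest neighbours (30 components, 2000 variable genes; scanpy 1.11.5, scikit-learn 1.9.0, Python 3.11.15). Tried on annotated wells, this gave the authors' class to 74.7, 87.7 and 99.4% of ILC2 cells and 94.1, 13.6 and 50.4% of ILC3 cells. Transferred ILC3 classes therefore entered no comparison of ILC3 cells, only the alternative over all ILC classes. The UMIs of each mouse or hashtag were added up and the sums compared with edgeR 4.0.16 (TMM, filterByExpr, quasi-likelihood test; R 4.3.3), with an experiment term for fibroblasts. The p-values measure the spread between hashtags. Alternatives used DESeq2 1.42.0, other scaling, filters, classes and samples. The fits were also tested on simulated counts with 2-fold and 4-fold changes. Of the 2-fold changes 44% were recovered for ILC2 cells of Il23mc against STA and 53% for fibroblasts of STA against healthy. The shares were 68% for ILC3 cells of Il23mc against healthy and 83% for fibroblasts against ILC2 cells. Of the 4-fold changes 81 to 98% were recovered. Ratios of 1 hashtag to 1 carry counting intervals and use genes with at least 20 UMIs over both hashtags together.

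The members and gene lists were chosen with earlier results of these data known. All members may be named; of the other lists up to 6 genes past the threshold with the largest change are, or fewer. Part of the signalling list is not reported here.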

Additional observations from a re-analysis of the deposited data

Results flagged for a closer look

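The cells of STA mouse 2 of experiment 1 that were classed as ILC3 by transfer entered only the alternative over all ILC classes. In them many members stood above their level in every healthy mouse. The 5 that were flagged were Ifitm1 at 1564 CPM, Ifitm2 at 1482, Ifitm3 at 1057, Bst2 at 476 and Ifi27l2a at 299 CPM. Trim30a and Zbp1 were among the others above every healthy mouse, and Isg15 and Irf1 were not above. In the same 74 cells B and plasma cell markers summed to 17751 CPM, dendritic cell markers to 3625, neutrophil markers to 2321 and plasmacytoid dendritic cell markers to 1658 CPM; their part in the values was not tested. In the healthy ILC well, Ifit1 had 145 UMIs in 952 barcodes outside the sums, 136 of them in 1 barcode, against 3 UMIs in the ILC2 and ILC3 sums of that well. No group held the 4 to 10 samples that a check for single outlying samples needs.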

How the results depend on the processing

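The number of members past the threshold changed most with the filter. With no filter on low counts it was 5 (from 0) in ILC2 STA against healthy, 6 (from 3) in Il23mc against STA, 12 (from 4) in fibroblasts and 4 (from 0) for the interaction. With only the groups compared in the fit it was 2 in ILC2 STA against healthy, without the experiment term 2 in fibroblasts, without Cd3-holding cells 5 in ILC3, and 1 for the interaction with DESeq2 or with experiment 1 only. Leaving out 1 mouse or hashtag gave 4 to 6 members in fibroblasts, 23 to 24 in fibroblasts against ILC2, 1 to 4 in Il23mc against STA, 5 to 8 in Il23mc against healthy, 0 to 2 in STA against healthy, 8 to 14 in ILC3 and 0 to 1 for the interaction. Where this left 1 hashtag in a group, it was assumed to vary like the others. Over all genes, counts that moved by more than 1.5 times were, for STA against healthy (209), 547 with no filter, 31 over all ILC classes, 325 with only those groups and 70 to 144 leaving out 1; for Il23mc against STA (126), 386 with no filter, 194 with 1 rule for calls and classes, 194 without Cd3-holding cells and 68 to 149; for Il23mc against healthy (549), 854 and 317 to 594; for ILC3 (1691), 730 with DESeq2, 372 without Cd3-holding cells and 803 to 2437; for fibroblasts (2151), 3504, 335 without the experiment term and 715 to 2163; and for the interaction (223), 486 with DESeq2, 554 with no filter, 70 and 7 with experiment 1 or 2 only and 32 to 296. The cause of these changes was not tested.

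Mice of the same hashtag number in different groups had correlations of deviations from -0.13 to 0.13, so the numbers do not pair the samples. With the replicate block 1 member passed in ILC2 STA against healthy (Bst2, adjusted p = 0.0478), and 925 of all genes in ILC3. No paired analysis was possible for fibroblasts because a healthy and an STA hashtag share an experiment, not a number, and the experiment term is already in the fit.

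Of the single members' alternatives that did not leave out a sample, 319 kept direction and call, 21 lost the call, 4 gained it and 2 reversed; of those that did, 607, 37, 1 and 6. The reversals were Irf1 in ILC2 STA against healthy (0.06; -0.17 with 1 rule for calls and classes, and -0.15 to 0.28 leaving out 1 mouse), Bst2 in Il23mc against STA (0.17; -0.52 over all ILC classes and -0.042 to 0.70 leaving out 1) and Samd9l in Il23mc against healthy (-0.12; -0.23 to 0.13 leaving out 1); none of these passed the threshold. Without the top 3 cells, fibroblast ratios of Il23mc to STA turned to 0.50 for Cmpk2, 0.23 for Ifit1 and 0.065 for Ifit3.

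At the depth of the ILC sums the IFIT and OAS genes stayed below the filter, so changes in them were not detectable.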
